A study of Mus musculus with 3 samples.

Results

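The Rn18s-rs5 locus on mouse chromosome 17 is a ribosomal RNA entry of the genome assembly, and Tet2 CLIP placed 23 peaks at it or close by. The peaks were taken from the deposited lists as those on chromosome 17 whose midpoint lay within the mm10 span of Rn18s-rs5 (39846354 to 39848202, 1849 nt) or up to 5000 nt to either side, a window of 11849 nt. They numbered 7, 8 and 8 in replicates 1, 2 and 3, out of 3019, 2800 and 2377 listed peaks, or 8196 in all. The locus was chosen by the height and number of its peaks in these same lists, so heights and presence are a description and carry no test.

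CLIP captures RNA that ultraviolet light has cross-linked to a protein, here the endogenous Tet2 pulled down with an antibody. The 3 libraries form 1 group of biological triplicates: C57BL/6 mast cells derived from bone marrow in culture with IL-3 and SCF, the growth factors interleukin-3 and stem cell factor, and positive for FcɛRI and c-Kit. No age, genotype difference or drug treatment is given in the labels, and neither an input nor a control-antibody library was analysed here. Binding to Tet2 therefore cannot be told apart from the abundance of an RNA in the cells.

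Ribosomal RNA is transcribed by RNA polymerase I as a long precursor that holds the 18S, 5.8S and 28S RNAs between external and internal transcribed spacers. The spacers are removed in the nucleolus, and the 18S RNA becomes the core of the small ribosomal subunit. The genes lie in tandem arrays of near-identical copies, most of which are missing from the assembled chromosomes. Ribosomal RNA makes up most of the RNA in a cell, and Tet2, which oxidises 5-methylcytosine, is best known as an enzyme of DNA. The placement of reads that match several copies is not stated in the sources at hand, so a peak at this locus may hold reads from other copies.

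The gene table types Rn18s-rs5 as a pseudogene and lists Gm42418 among its synonyms. Its last 91 nt overlap AY036118, a long non-coding RNA gene (39848112 to 39898385). The next annotated genes, Esp15 and Esp38, code for exocrine gland-secreted peptides and lie 200687 nt before and 102318 nt after the span. Neither Esp gene held a peak. The strand of Rn18s-rs5 and the limits of the precursor and its spacers are not in the table, so "before" and "after" below mean lower and higher coordinates. The sequence of the peaks was not analysed here.

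**Figure D1:**
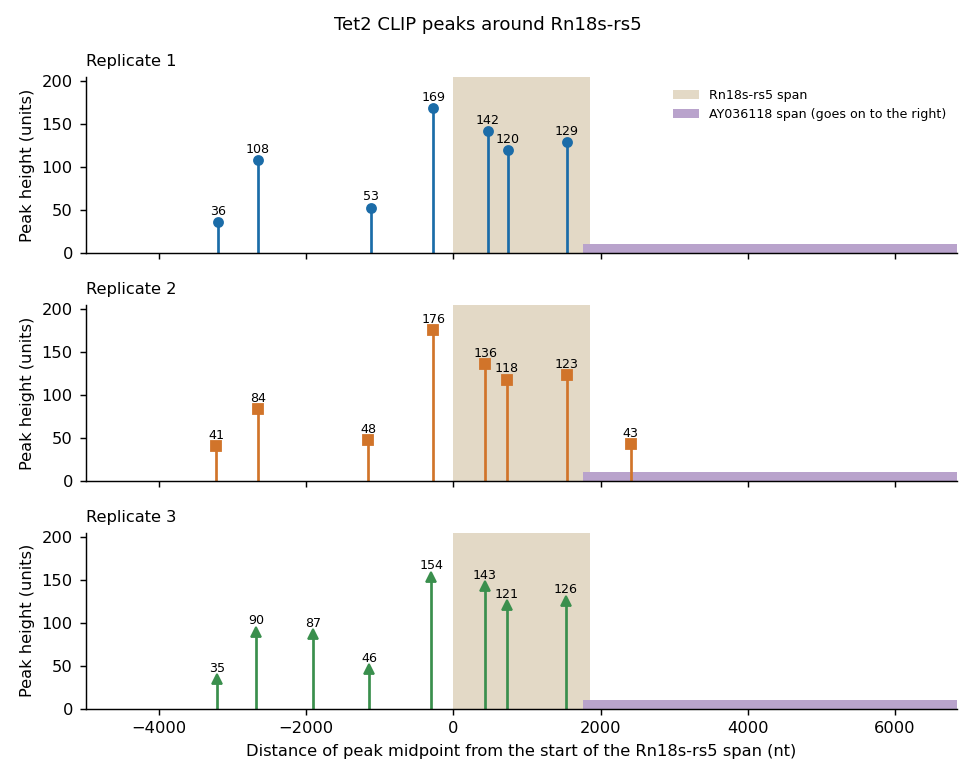
Each stem is a Tet2 peak, placed by the distance of its midpoint from the start of the Rn18s-rs5 span (x axis, nt) and drawn to its height (y axis, units), with 1 panel per replicate. Peaks stood in and before the span in all 3 libraries, and the only peak after it, of 43 units, was in replicate 2.

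Heights are given in units of the smallest step between deposited heights, and the sources do not state whether such a unit equals 1 read. Peaks with at most 100 nt between them were counted as a site, which gave 9 sites, numbered here in order along the chromosome. Of these, 7 held a peak in all 3 libraries and 2 in a single library, and 14.8% of the 5579 sites formed in this way over all chromosomes were in all 3. That share is over peaks of any height. Of other peaks of at least 35 units, 97.6%, 100% and 100% in replicates 1, 2 and 3 had a midpoint within 100 nt in both other libraries. The 7 repeated sites lay 287 to 1525 nt apart on average, 4 of them before the span and 3 inside it.

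Inside the 18S span, 3 sites of similar height were found in every library. Site 6 stood at 142, 136 and 143 units in replicates 1, 2 and 3, at positions 39846818, 39846784 and 39846782. These lie 25.1%, 23.3% and 23.2% of the way along the span. Site 6 was the sixth tallest peak of each library. Site 7 stood at 120, 118 and 121 units, with midpoints 735, 724 and 723 nt from the start of the span, and ranked 11 in each library. Site 8 stood at 129, 123 and 126 units, with midpoints 1541, 1537 and 1523 nt from the start, and ranked 10 in each library. In units the SD over 3 libraries was 3.79 at site 6, 1.53 at site 7 and 3.00 at site 8. As a share of library height, replicate 3 was highest at all of these sites, with 0.739%, 0.744% and 0.927% at site 6, 0.625%, 0.646% and 0.784% at site 7 and 0.671%, 0.673% and 0.817% at site 8. Together the span's peaks summed to 391, 377 and 390 units.

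The tallest peak of the locus lay just before the annotated 18S start, outside any gene span. Site 5 reached 169, 176 and 154 units at positions 39846081, 39846078 and 39846054, which is 273, 276 and 300 nt before the span. It was the tallest peak of chromosome 17 in all 3 libraries and ranked 4, 3 and 5 over the genome. Site 2 reached 108, 84 and 90 units at 2660, 2659 and 2684 nt before the span. This site varied most in units, with an SD of 12.5, and replicate 1 stood above the other libraries. Site 4 stood at 53, 48 and 46 units and site 1 at 36, 41 and 35 units, on average 1143 and 3210 nt before the span. Even the lowest of these ranked 47, 42 and 44 among all peaks of its library, whose median peak stood at 4 units.

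At 2 sites a peak was listed in 1 library alone. Site 3 held a peak of 87 units in replicate 3 (39844449 to 39844454), the sixth tallest on chromosome 17 there. Replicates 1 and 2 listed no peak between sites 2 and 4, although their lists go down to 2 units. Site 9 held a peak of 43 units in replicate 2 (39848762 to 39848764), 561 nt after the Rn18s-rs5 span and inside AY036118. It was the only peak of AY036118 in any library, although that span runs over 50274 nt. The peak caller asks for a valley on both sides of a peak, and coverage below the called peaks was not analysed here, so an unlisted site may still have held reads.

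The order of the 7 repeated sites by height was the same in all 3 libraries: 5, 6, 8, 7, 2, 4 and 1. In units, none of the 6 neighbouring pairs in this order had overlapping ranges over the libraries. On the scale of the library's summed height, site 5 averaged 0.947% ± 0.0609, site 6 averaged 0.803% ± 0.107, site 8 averaged 0.720% ± 0.0833 and site 7 averaged 0.685% ± 0.0866 (SD, n = 3). On that scale the ranges of sites 5 and 6, of 6 and 8 and of 8 and 7 overlapped between libraries, while within each library the order was the same for every pair. Site 2 followed at 0.535% ± 0.0660, site 4 at 0.279% ± 0.0179 and site 1 at 0.213% ± 0.0221 (SD, n = 3), with no overlap between neighbours. Separate animals or cultures are not named in the labels, so part of this spread may be technical.

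**Figure D2:**
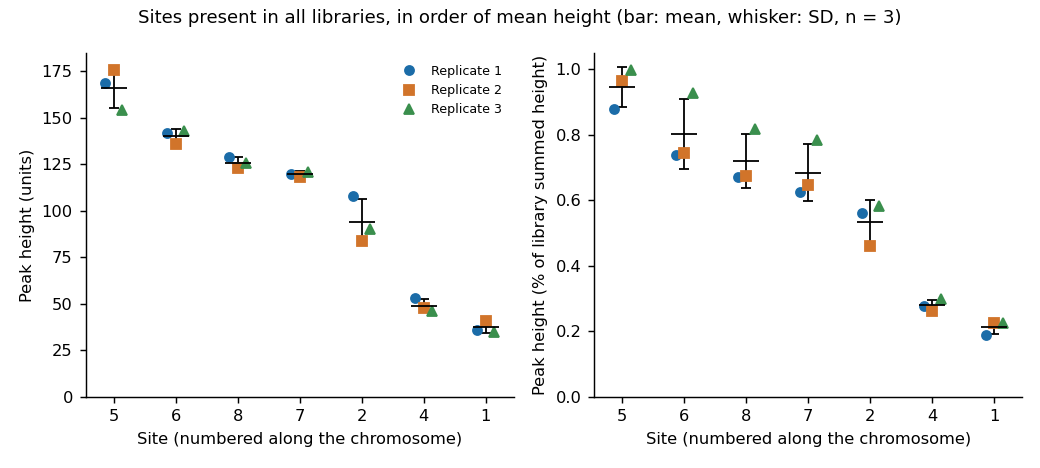
Heights of the 7 sites found in all 3 libraries, in units (left) and as a percentage of the library's summed height (right), by site number on the x axis. Points are replicates, bars are means and whiskers are SDs over the 3 libraries; on the right replicate 3 stands apart from the others at sites 6, 7 and 8, where the left panel has ranges of 136 to 143, 118 to 121 and 123 to 129 units.

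Summed over the window, replicates 1, 2 and 3 held 757, 769 and 802 units. These peaks were 0.232%, 0.286% and 0.337% of the listed peaks and took 3.94%, 4.21% and 5.20% of the summed height, a mean of 4.45% ± 0.662 (SD, n = 3). The share was highest in replicate 3. The window of replicate 3 held 1.06 times the units of replicate 1 and 1.32 times its share, while all peaks of replicate 3 summed to 0.803 times the units of replicate 1. Window peaks covered 25, 13 and 30 nt, at a mean of 108, 96.1 and 100.2 units per peak. With the 7 repeated sites alone, a setting added after the values were seen, the sums were 757, 726 and 715 units and the shares 3.94%, 3.97% and 4.63%. The direction of the difference between replicates 1 and 3 thus differed between units and share for the repeated sites.

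The window divided about evenly between the 18S span and the stretch before it. The span's peaks took 2.04%, 2.06% and 2.53% of library height, a mean of 2.21% ± 0.276 (SD, n = 3). Peaks before the span took 1.905%, 1.91% and 2.67%, a mean of 2.16% ± 0.440 (SD, n = 3), and these ranges overlap.

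On chromosome 17 the locus stood far from any other listed peak. The window held 3.63%, 4.30% and 5.52% of the chromosome's peaks and 42.4%, 44.1% and 51.5% of its summed height in replicates 1, 2 and 3. The first peak inside the lower edge stood at 36, 41 and 35 units, and the nearest peak outside it lay in Gabbr1, a subunit of the GABA-B receptor, 2.79, 2.77 and 2.79 Mb away at 3, 5 and 14 units. The last peak before the upper edge stood at 129, 43 and 126 units. The nearest beyond it lay 5.71, 5.82 and 6.17 Mb away at 5, 3 and 3 units, in Slc35b2, Tmem63b and Vegfa. The window was therefore the only part of an 8.52, 8.60 and 8.97 Mb stretch with a listed peak.

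Peaks of the locus were narrow as well as tall. Their median width was 1, 1 and 3 nt in replicates 1, 2 and 3, and the widest measured 11, 4 and 12 nt. Peaks of a single nucleotide made up 4 of 7, 6 of 8 and 3 of 8 window peaks, against 1.39%, 1.43% and 1.09% of all listed peaks. The median width over each library was 53 nt. Other peaks of at least 35 units, the lowest height in the window, had median widths of 7, 6 and 8 nt, so tall peaks elsewhere were narrow too.

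**Figure D3:**
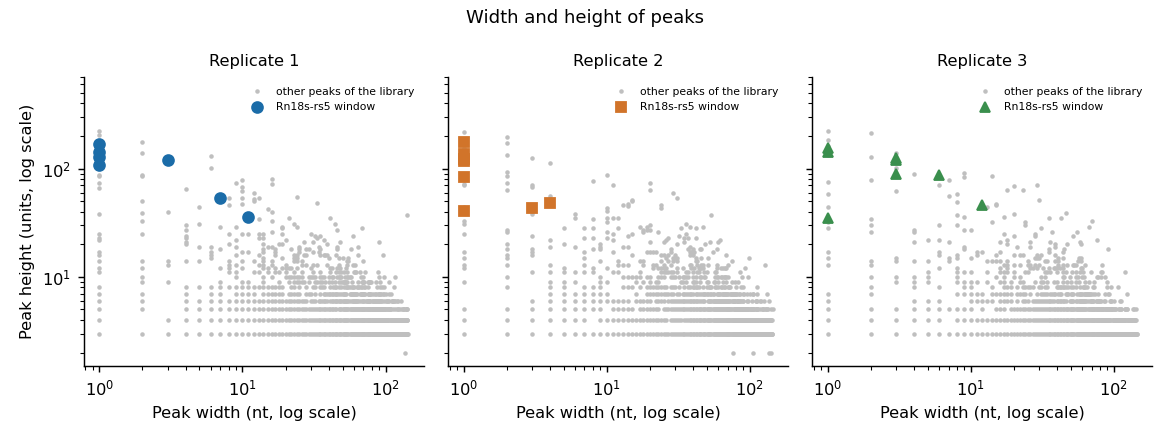
Width (x axis, nt) and height (y axis, units) of every listed peak, both on log scales, with 1 panel per replicate. Grey points are peaks elsewhere and coloured points the window's peaks, which lie at 12 nt or less and at 35 units or more.

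The same sites recurred in every library, but not at the same nucleotide. By an overlap of at least 1 nt, none of the 7, 8 and 8 window peaks of replicates 1, 2 and 3 was found in both other libraries, and 0 of 21 loci formed by such overlaps held all 3 libraries, against 11.1% of 5969 over all chromosomes. Over all peaks of each library the share found in both others was 20.6%, 21.9% and 26.2%, and over other peaks of at least 35 units it was 52.4%, 52.4% and 60.5%. Wider peaks overlap more readily, and median widths were 53 nt over all peaks and 7, 6 and 8 nt over those other tall peaks. Window peaks had median widths of 1, 1 and 3 nt, so these shares are not matched for width. When a midpoint within 100 nt counted as found, 7 of 7, 7 of 8 and 7 of 8 window peaks were present in both other libraries. The corresponding shares were 26.3%, 28.3% and 33.5% over all peaks and 97.6%, 100% and 100% over other peaks of at least 35 units.

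Midpoints within a repeated site spread over 12 to 36.5 nt, with a median of 25 nt over the 7 sites. The midpoint of replicate 1 lay at the lower coordinate at 1 of 7 sites when set against replicate 2 and at 0 of 7 when set against replicate 3. Replicate 3 was shifted from replicate 1 by a median of -18 nt and replicate 2 by -11 nt. Sites of the same kind elsewhere were set beside this after the values were seen, taking peaks of at least 35 units and at most 12 nt. Of these, 19 sites outside the window were in all 3 libraries, and their midpoints spread over 0 to 84.5 nt with a median of 6 nt. A spread above 10 nt was found at 5 of those 19 sites and at 7 of 7 window sites, whose smallest spread was 12 nt. The limits of 35 units and 12 nt were the window's own lowest height and greatest width, so every window peak met them. The peaks of Rn7s1 and of Igk fell on the same nucleotide in all 3 libraries, while those of Gm36876 spread over 84.5 nt, those at Cmss1 and Filip1l over 35 nt and those of Rmrp over 24.5 nt. The difference was not tested, and spreads of this size also occurred elsewhere.

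**Figure D4:**
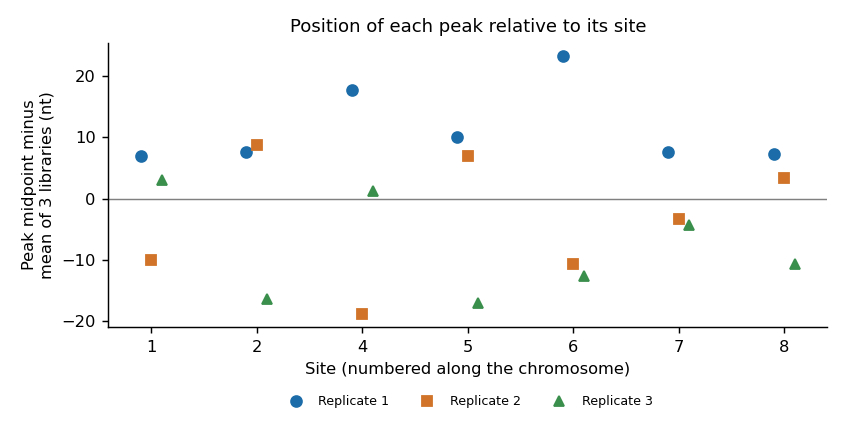
Distance of each peak's midpoint from the mean of its site over the 3 libraries (y axis, nt), for the 7 sites found in all of them (x axis). Replicate 1 lies above the mean at every site, and replicate 3 lies below that of replicate 1 at all 7.

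Among annotated genes, the 18S span took the largest share of library height in these lists. It ranked 1 among the 778 genes with a peak in every library. The genes nearest to it in mean share over the 3 libraries were Col5a1, a collagen V chain, at 1.65% ± 0.130, Rn7s1 at 1.26% ± 0.157, Rn7s2 at 1.17% ± 0.176, Gm36876, a long non-coding RNA gene, at 1.01% ± 0.145, and the immunoglobulin kappa locus Igk at 0.930% ± 0.111 (SD, n = 3). Their log2 ratios to Rn18s-rs5 were -0.42, -0.80, -0.92, -1.12 and -1.25. Col5a1 ranged from 1.53% to 1.79% over the libraries, below the lowest value of Rn18s-rs5, 2.04%. Sums over a span grow with its length, and Col5a1 spans 153130 nt.

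Set per length beside other abundant structural RNAs, the 18S span did not lead. Rn18s-rs5 took 1.19% ± 0.149 of library height per kb of span (SD, n = 3). Rn7s1 and Rn7s2, which encode the 7SL RNA that scaffolds the signal recognition particle, took 4.23% ± 0.525 and 3.92% ± 0.587 per kb. Rpph1, the RNA of ribonuclease P, took 1.92% ± 0.107 per kb, and its lowest library (1.83%) lay above the highest of Rn18s-rs5 (1.37%). This order comes from the division by length. The Rpph1 peak stood at 114, 112 and 102 units, below every peak of the 18S span in the same library. Undivided, Rpph1 averaged 0.622% of library height and the 18S span 2.21%. Rmrp, the RNA of ribonuclease MRP, which takes part in cleaving the ribosomal RNA precursor, took 1.33% ± 0.0875 per kb. The range of Rmrp, 1.23% to 1.39%, overlapped that of Rn18s-rs5, 1.10% to 1.37%. Rn7sk, the 7SK RNA that holds back the elongation factor P-TEFb, was lowest at 0.153% ± 0.0364 per kb. Each of Rn7s1, Rn7s2, Rpph1 and Rmrp held 1 peak per library, against 3 in Rn18s-rs5. Rn18s-rs5 was chosen for its height, and the other RNAs as the nearest kind of RNA with these lists known. These values are therefore set side by side without a test.

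**Figure D5:**
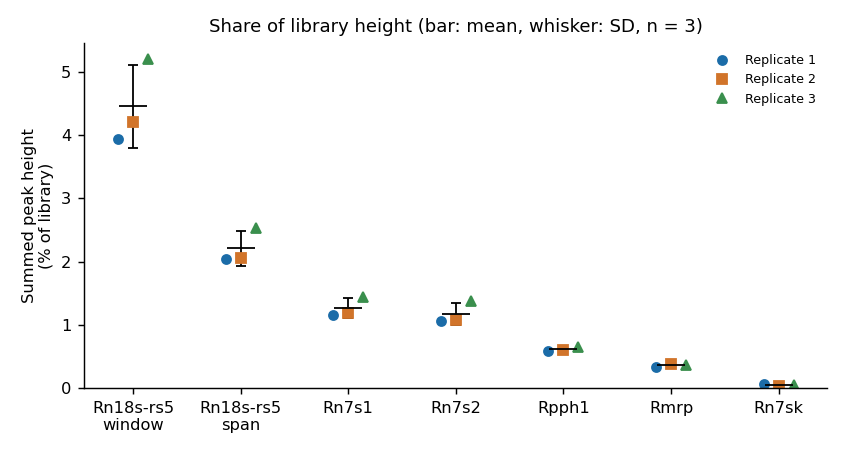
Summed peak height as a percentage of the library's total (y axis) for the Rn18s-rs5 window, its 18S span and 5 other structural RNAs (x axis), not divided by length. Points are replicates, bars are means and whiskers are SDs over 3 libraries; the window lies at 3.94% to 5.20% and Rn7sk is the lowest.

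Other ribosomal and nucleolar RNA genes held peaks near the library median of 4 units, below the window's peaks, which were picked for their height. The table's other entry of this family, Rn28s1 for 28S RNA, held none at its tabulated span, and neither did the 2 mitochondrial ribosomal RNA genes. The lists hold no peak on the mitochondrial chromosome at all, and which sequences were part of the mapping is not stated. Of 70 genes for 5S RNA, the small RNA of the large subunit that RNA polymerase III makes, 2 (2.86%) held a peak. Of all 5250 genes in the table that are not protein-coding and measure at most 300 nt, 0.533% held a peak in at least 1 library. n-R5s136 held 1 peak of 7, 7 and 8 units, and n-R5s103 held 1 of 3 units in replicate 3 alone. These genes are near-identical copies, and how reads were divided among them was not analysed here. Rn4.5s, a small RNA typed as ribosomal in the table, held a peak of 4 units in replicates 1 and 2. Of 94 C/D snoRNA genes, which guide methylation of ribosomal RNA, 2 (2.13%) held a peak: Snord23 at 5, 6 and 4 units and Snord55 at 5 units in replicate 2. None of 39 H/ACA snoRNA genes, which guide pseudouridylation, and none of 9 scaRNA genes held a peak. A peak inside a snoRNA gene may belong to its host gene, since the table gives spans without strand.

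Protein-coding genes for making ribosomal RNA held low peaks, and the share of them with a peak was not tested against that of other genes. Of 84 listed ribosome biogenesis genes, 16 (19.0%) had a peak in 1 library or more, and so did 14.1% of 21900 protein-coding genes. In all 3 libraries the numbers were 5 of 84 (5.95%) and 3.16%. The median member, like the median protein-coding gene, held no peak. Per library, 11, 12 and 9 of the 84 held a peak, and the tallest stood at 13 units.

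Among genes for transcription of ribosomal DNA, 2 of 12 held a peak. Ubtf, which binds the ribosomal DNA promoter and recruits RNA polymerase I, held 2 peaks in each library, the taller at 8, 3 and 4 units. Rrn3, a polymerase I initiation factor, held a peak of 3 units in replicate 1. The listed polymerase I subunits, Polr1a to Polr1e, held none. Of 4 organisers of the nucleolus, 3 held a peak: Ncl (nucleolin) at 0, 13 and 3 units, Npm1 (nucleophosmin) at 3, 3 and 0 units and Tcof1 (treacle) at 3, 0 and 3 units. Of 8 proteins of the snoRNA-guided complexes, Gar1, of the H/ACA complexes, reached 3, 8 and 0 units and Fbl (fibrillarin, the methyltransferase) 0, 0 and 3 units.

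Processing and assembly factors followed the same pattern of low peaks. In the small subunit processome, 4 of 26 genes held a peak, and Wdr43 was the only one with a peak in all 3 libraries, at 3, 5 and 4 units. Among late small subunit factors 2 of 9 did, with the kinase Riok1 at 4, 12 and 7 units and Dimt1, which dimethylates the 18S RNA, at 6, 3 and 0 units. Large subunit factors had 3 of 15, with Nop53 at 5, 6 and 5 units, the RNA helicase Ddx21 at 3, 3 and 4 units and Bop1 at 0, 3 and 5 units. None of 10 exosome genes held a peak. The lowest window peak, 35 units, stood above the tallest peak of the whole list, but the window was picked for the height of its peaks.

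Markers of the labelled cell type were covered in part. Of 10 mast cell markers, 7 held a peak in some library, against 14.1% of protein-coding genes. Kit, Gata2, Cpa3, Hdc, Tpsb2 and Slc18a2 held peaks in all 3 libraries, and Mitf held 1 peak of 3 units in replicate 3 alone. Fcer1a, Ms4a2 and Tpsab1 held none. Tpsab1 is typed as a transcribed pseudogene and so is not among the protein-coding genes behind the 14.1%. Of 4 macrophage markers, Adgre1 held a single peak of 3 units in replicate 2, and none of 5 neutrophil or 5 lymphocyte markers held a peak. The lists are short, and their counts were not tested against the rate of 14.1%.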

How the data were processed

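Tet2 CLIP was run on 3 replicate libraries of 1 group. Per the submitters' processing notes, cutadapt 1.9, STAR 2.4.0i and the build mm10 were used, and the caller sought valleys beside each peak, per the labels' protocols. Its settings and the handling of reads with several matches are not stated there. The values are a signal: the authors deposited a normalized height per peak, which sums to 1 in each library and is a whole multiple of a constant step (100% of peaks, tolerance 0.05 steps). That step is the unit of height; summed heights were 19213, 18270 and 15431 units, and sequencing depth is unknown. Column blocks were matched to libraries by replicate number. Starts were read as 0-based and positions are printed 1-based. A gene held a peak when the peak's midpoint lay in its span in a RefSeq table of GRCm38.p6, the assembly of mm10; all 84 list symbols matched. Peaks were merged, counted and ranked with Python 3.11.15 and pandas 2.3.3, and the merging was tested on simulated data. The simulated sites lay further apart than those of the window, so that test does not cover sites as close as these.

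With 1 group and no control library, no test was made. The members and lists were chosen with earlier results of these data known. Named were all window peaks, neighbouring genes, 5 structural RNAs for comparison, the 5 genes nearest in share, and listed genes with a peak in all 3 libraries; other listed genes were named after their values were seen.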

Additional observations from a re-analysis of the deposited data

How the results depend on the processing

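Of 62 recomputed values, 48 stayed within the spread between libraries or, for counts, within 1.5 times. Some of these could not have moved. A mean over 3 libraries cannot shift beyond its SD when a library is left out, so those means were bound to stay. A narrower window cannot hold a site shared by overlap where the full window held none. The window's lowest peak stood at 35 units, so a cut at 5 units left its peak number, widths and tallest height unchanged. The nearest peak outside lay 2.77 Mb or more away, so 10000 nt on either side, or any overlap with the window, added no peak. Peaks in the window averaged 7.67 per library, 3.00 in the span alone, 5.67 with 2000 nt on either side and 7 over the repeated sites, a setting added after the values were seen. The window's share of height, 4.45%, became 2.21% in the span alone, 3.70% with 2000 nt and 6.63% among peaks of at least 5 units. That last setting has a smaller total by construction, and moved the span's share from 2.21% to 3.29%. The tallest peak averaged 166 units, and 140.3 in the span alone. Leaving out a library gave 7.5 to 8 peaks, 4.07% to 4.70% for the window, 2.05% to 2.30% for the span and 161.5 to 172.5 units for the tallest peak.

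The number of sites shared by all libraries depended on the rule: 0 by an overlap of 1 nt, and 7 with peaks merged within 100 or 200 nt. It was 0 to 1 when a library was left out, being 1 without replicate 1 and 1 without replicate 2. Of the ribosome biogenesis genes, 16 held a peak, 8 with peaks of at least 5 units, 5 with a peak in all 3 libraries and 14 to 15 with a library left out. No paired analysis was possible because the libraries form 1 group. Sequencing depth is unknown, so no counting error could be given, and the values cover listed peaks alone.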
